A study of Salmo salar with 189 samples.

Results

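Rora-Ch10 and Rora-Ch16 are the Atlantic salmon copies of Rora that lie on chromosomes 10 and 16 and were retained as a pair after the salmonid whole genome duplication. They were taken by name from the deposited table, as 2 of its 48 genes, by a rule that uses no measured value, although earlier results of these data were known. Their abundance was measured in 189 samples with a NanoString CodeSet, in which a fluorescent barcode is counted for each captured target molecule. The samples came from 64 pre-smolt fish of about 45 g, and 62 of these fish gave all 3 tissues. These were the optic tectum (OT), which is a visual centre of the brain, the saccus vasculosus (SV), which is an organ on the underside of the fish brain, and the gill. All fish had been reared in constant light, then held for 8 weeks in a light-dark cycle that the labels give as 8 h of light to 16 h of darkness (the study's methods state a shorter light phase), at 14 °C, without food from 48 h before the first sampling.

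Each tissue had 21 groups of 3 fish, sampled every 4 h. LD stands for 5 groups in the light-dark cycle, at zeitgeber time (ZT, hours after lights on) 5 to 21. LL stands for 8 groups with the light left on and DD for 8 groups with it withheld, at circadian time (CT, hours from the time at which lights would next have come on) 1 to 29. The diel series joined the LD groups with LL at CT1 and CT5, as in the study's methods, since these fish had by then met a usual morning. The LL and DD series ran from CT9 to CT29. Fish were held in a pair of tanks, and light and tank cannot be told apart.

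RORA is a nuclear receptor that binds ROR response elements in DNA and raises transcription of Arntl1, which encodes BMAL1, a partner in the clock's main activator. The REV-ERB proteins, products of Nr1d1 and Nr1d2, bind these elements too and repress transcription from them, and this competition forms the second loop of the vertebrate clock. In mammals, RORA is also known for its part in the development of the cerebellum and in lipid metabolism.

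The 2 genes were told apart by separate 100-base targets, at transcript positions 3009 to 3108 of Rora-Ch10 (gene 106561150, roraa in the RefSeq table of assembly Ssal_v3.1) and 3026 to 3125 of Rora-Ch16 (gene 106573506, with no symbol other than LOC106573506 there). The targets overlapped in homologous sequence for 53 bases, of which 38 were the same without gaps. The 30 bases of that overlap with most matches are shown, 5′ to 3′. They are where the targets are most alike, and so understate how far these differ over the whole overlap. Capitals mark the bases that differ.
Rora-Ch10: TctctgaccaGctgttgaCccAtctTGtta
Rora-Ch16: CctctgaccaTctgttgaTccTtctGTtta
Within these windows 24 of 30 bases were the same and 6 differed. Each gene was read by its own capture, and captures can differ in efficiency, so a ratio between the members is not a ratio of molecules, whereas its change from tissue to tissue or from time to time does not depend on a fixed difference in efficiency.

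Values are barcode counts scaled by the authors to spike-in controls, here called signal, in no unit of RNA amount. The controls served to scale across samples and runs, but not for RNA amount, so levels were compared within a tissue and only ratios and amplitudes between tissues. Counting the whole steps that the values of a sample are made of gave 23602 to 50352 barcodes per OT sample, 1385 to 20679 per SV sample and 3767 to 14716 per gill sample. The shallowest was the SV sample of LL at CT21 from fish A47, where Rora-Ch16 rested on 6 barcodes and Rora-Ch10 on 37. The next lowest SV total was 3976. In the gill, 3 samples had a geometric mean over expressed transcripts of 52.9 to 66.3, against 79.8 to 138 in the other samples: LD at ZT17 (fish A20), LL at CT17 (A42) and DD at CT17 (B18).

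Both members were expressed in all 3 tissues, and Rora-Ch10 gave the higher signal in 63 of 63 samples of each. In the OT, Rora-Ch10 had the highest mean signal of the 41 expressed transcripts, running from 2900.2 over a median of 4324 to 5874, and Rora-Ch16 ranked 3 of 41, with 1749, 2326 and 3539. Together they made up 12.6% and 6.90% of the summed OT signal. In the SV, Rora-Ch10 ran from 207 over 362 to 691 and Rora-Ch16 from 44.7 over 84.9 to 301, which placed them at ranks 11 and 28 of 38. In the gill, Rora-Ch10 ran from 255 over 853 to 1542 and Rora-Ch16 from 38.8 over 91.5 to 126, at ranks 2 and 22 of 40. Ranks compare captures, with the limit on efficiency given above. A lower signal in a tissue can come from less RNA in the assay, from fewer cells that express a gene or from less RNA per cell. These cannot be told apart here.

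**Figure D1:**
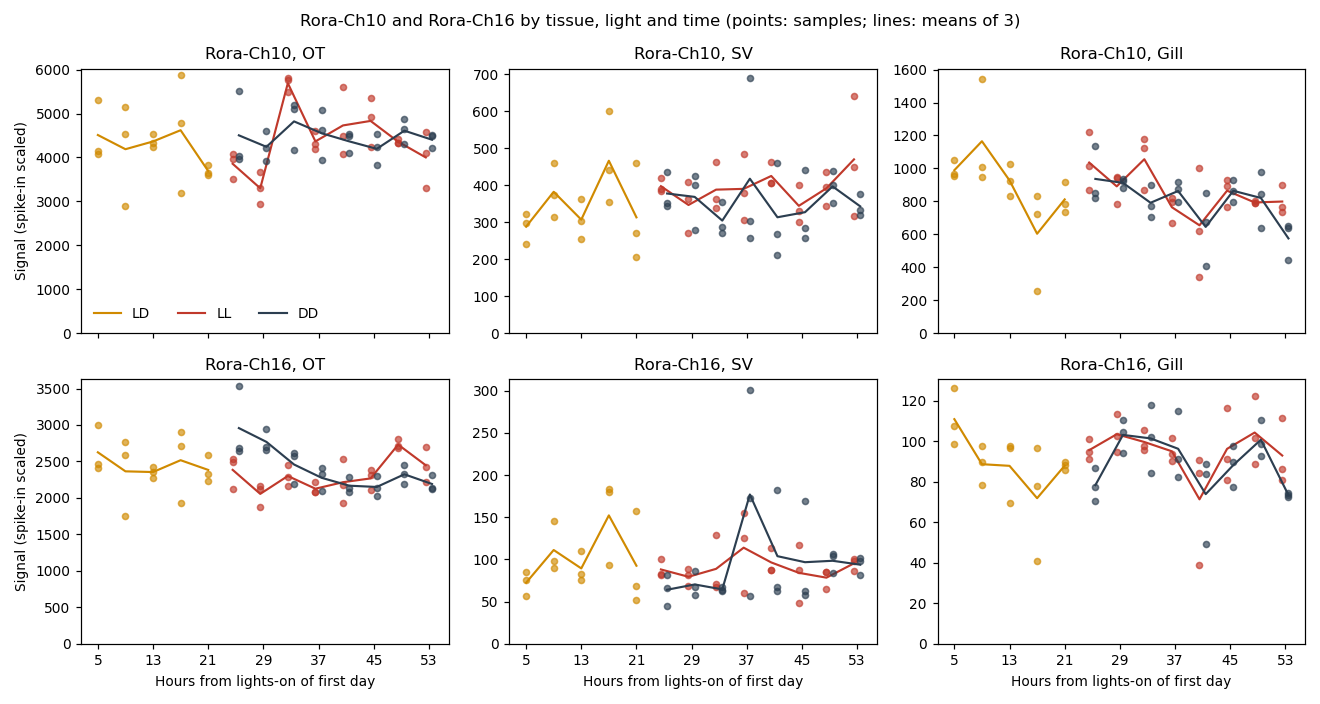
Spike-in scaled signal of Rora-Ch10 (top row) and Rora-Ch16 (bottom row) in the OT, SV and gill against hours from lights on of the first day. Points are samples, lines are means of 3 fish, and vertical scales differ between panels but start at 0. LL and DD points are set slightly apart for legibility, and the gill points at 17 and 41 h include the 3 samples of low geometric mean.

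The balance of the pair differed between the tissues. The log2 ratio of Rora-Ch10 to Rora-Ch16 within a sample was 0.88 ± 0.20 (SD, n = 63) for OT samples, 2.00 ± 0.39 (n = 63) for SV samples and 3.17 ± 0.29 (n = 63) for gill samples, or 1.83-fold, 4.01-fold and 9.03-fold as signal. The lowest and highest samples were 0.47 and 1.41 for the OT, 0.80 and 2.91 for the SV and 2.55 and 4.28 for the gill. No OT sample overlapped any gill sample, while 7 of 63 SV samples lay at or below the highest OT sample and 9 of 63 gill samples at or below the highest SV sample. Seen from the other side, 38 of 63 OT samples lay at or above the lowest SV sample, and 4 of 63 SV samples at or above the lowest gill sample. In fish that gave both tissues, the ratio was higher in the SV than in the OT in 61 of 62, higher in the gill than in the OT in 62 of 62, and higher in the gill than in the SV in 63 of 63.

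**Figure D2:**
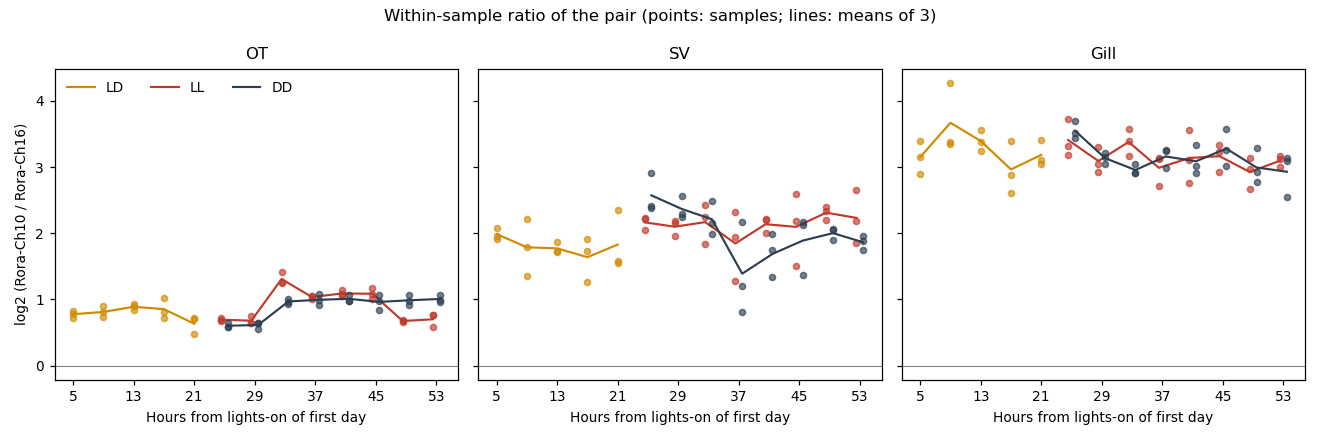
Log2 of the ratio of Rora-Ch10 to Rora-Ch16 in each sample (points) and its mean over 3 fish (lines) against hours from lights on of the first day, by tissue and light. The grey line at 0 marks equal signal, and OT samples lie between 0.47 and 1.41, SV samples between 0.80 and 2.91 and gill samples between 2.55 and 4.28.

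The differences in log2 ratio were -1.13 for OT minus SV, -2.30 for OT minus gill and -1.17 for SV minus gill, that is a 2.18-fold, 4.92-fold and 2.25-fold change in the balance. Each had an adjusted p of 1.38e-05 (permutation of the tissue label within groups of light and time, two-sided, 100000 resamples, Benjamini-Hochberg over 40 comparisons of duplicate pairs, where the unadjusted p of 1e-05 is the smallest that the resamples can give). Such differences were common, with 92.3% of 13 duplicate pairs passing for OT minus SV, 85.7% of 14 for OT minus gill and 92.3% of 13 for SV minus gill. By the size of the ratio itself, the pair ranked 7 of 15 in OT samples, 6 of 13 in SV samples and 2 of 14 in gill samples. These ranks depend on the efficiency of the captures. By the size of the difference, only Per2-Ch14/Per2-Ch3 (2.87) exceeded the pair for OT minus SV. For OT minus gill only Hlf-Ch1/Hlf-Ch28 (-2.87) did. For SV minus gill, Per2-Ch14/Per2-Ch3 (-3.63), Hlf-Ch1/Hlf-Ch28 (-3.30) and Tef-Ch1/Tef-Ch28 (2.04) did. Transcripts listed as not expressed had a median signal of 5.17 in the OT and 2.61 in the gill, and subtracting it gave -2.34 for OT minus gill.

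The samples carry running numbers, and numbers were compared in runs of 12, since the instrument takes 12 lanes at a time. The labels do not state how samples were run. Tissues mostly fell into separate runs, and 2 runs held more than one. In numbers 61 to 72, the log2 ratio was 1.86 ± 0.11 in 3 SV samples of DD at CT29 and 0.83 ± 0.07 in 9 OT samples of LD at ZT5 to ZT13. In numbers 121 to 132, it was 1.00 ± 0.06 in 6 OT samples of DD at CT25 and CT29 and 3.41 ± 0.46 in 6 gill samples of LD at ZT5 and ZT9. Within these runs the tissue differences were of like size, at unmatched times, and an effect of the run on them was not tested.

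In the OT, neither member passed the test for a diel rhythm. Rhythms were tested with JTK_CYCLE, which compares the ranks of the samples with curves of 20 or 24 h. Its p is adjusted over the 11 curves tried for a transcript, with 0.05 as the threshold. Both members had an adjusted p of 1 over 21 samples, where 48.8% of 41 transcripts passed. The 24 h amplitude on the log2 scale, from a fitted cosine, was 0.12 ± 0.09 (SE) for Rora-Ch10 and 0.04 ± 0.06 for Rora-Ch16. Divided by the geometric mean of the expressed transcripts, Rora-Ch16 did pass in the OT diel series, at an adjusted p of 0.00206 and with an amplitude of 0.13 ± 0.03, and Rora-Ch10 did not. That geometric mean itself rose and fell in the OT diel series, with an amplitude of 0.16 ± 0.05, a peak at 16.2 h and an adjusted p of 0.0174.

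In LL, Rora-Ch16 passed in the OT and Rora-Ch10 did not. The 3 samples of Rora-Ch16 were 2163, 2284 and 2455 at CT9, 2079, 2084 and 2216 at CT13, 1934, 2174 and 2539 at CT17, 2106, 2315 and 2380 at CT21, 2680, 2710.2 and 2803 at CT25 and 2221, 2425 and 2698 at CT29. The 3 samples of CT25 lay above all samples of CT9 to CT21 and overlapped those of CT29. The JTK adjusted p was 0.0146 over 18 samples, with an amplitude of 0.15 ± 0.04 and a peak at CT2.27, against an adjusted p of 1 and an amplitude of 0.08 ± 0.07 for Rora-Ch10. In LL, 31.7% of 41 OT transcripts passed. The last 2 time points were also the only ones in a second run of sample numbers: with the run as a term, the cosine for Rora-Ch16 had p = 0.406 in a permutation within runs. Without replicate 1 of each time point Rora-Ch16 had an adjusted p of 0.134, and without replicate 3 of 0.312. In DD, where 39% of OT transcripts passed, the adjusted p was 1 for Rora-Ch10 and 0.703 for Rora-Ch16.

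The largest steps of the OT ratio fell at ends of runs of 12. It was 0.83 ± 0.07 in the first run (LD at ZT5 to ZT13), 0.71 ± 0.13 in the second (LD at ZT17 and ZT21, LL at CT1 and CT5), 1.13 ± 0.12 in the third (LL at CT9 to CT21), 0.65 ± 0.07 in the fourth (LL at CT25 and CT29, DD at CT1 and CT5), 0.98 ± 0.07 in the fifth (DD at CT9 to CT21) and 1.00 ± 0.06 in the sixth (DD at CT25 and CT29). From one time point to the next, the largest changes were +0.63 from CT5 to CT9 in LL, -0.41 from CT21 to CT25 in LL and +0.36 from CT5 to CT9 in DD, each where a run ended and each without overlap of samples. Over the 14 steps inside a run the median change was 0.03 and the largest 0.27, and 2 of them, -0.22 from ZT17 to ZT21 and -0.27 from CT9 to CT13 in LL, were also without overlap. The other 3 of the 6 steps across runs were small, at -0.04, -0.03 and 0.02, with overlap. Steps without overlap numbered 1 across runs and 0 inside them in the SV, and 2 and 2 in the gill. Such steps were not counted over the other pairs. Runs held 79.5% of the variance of the OT ratio, the highest of 15 pairs (median 30.0%), against 31.4% in the SV and 11.0% in the gill. As each run is also a stretch of consecutive times and light, run, time and light cannot be told apart in the OT ratio.

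**Figure D3:**
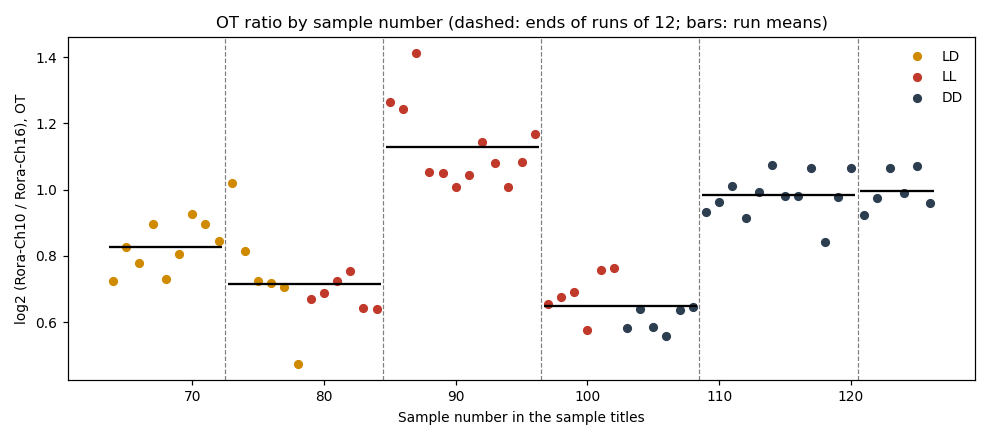
Log2 ratio of Rora-Ch10 to Rora-Ch16 in each OT sample against the sample number in the titles, coloured by light. Dashed lines mark the ends of runs of 12 and black bars the mean of a run. The run means are 0.83, 0.71, 1.13, 0.65, 0.98 and 1.00, in order.

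The step from CT5 to CT9 in LL came with a change in Rora-Ch10. Its OT samples were 2930, 3306 and 3658 at CT5, the lowest group of the tissue, and 5492, 5761 and 5819 at CT9, the highest, a 1.73-fold difference of means, while Rora-Ch16 was 1876, 2121 and 2169 at CT5 and 2163, 2284 and 2455 at CT9, which overlapped. The step from CT21 to CT25 in LL came with a rise of Rora-Ch16 from a mean of 2267 ± 143 to 2731 ± 64.2 (n = 3 each) and a Rora-Ch10 of 4831 ± 561 and 4358 ± 48.9.

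In the SV, neither member passed for a rhythm in any series. Rora-Ch16 had an amplitude of 0.30 ± 0.14 in the diel series with an adjusted p of 0.206, and Rora-Ch10 had 0.08 ± 0.11 with an adjusted p of 1. Of 38 SV transcripts, 23.7% passed in the diel series, 7.89% in DD and 0% in LL. In LL, JTK called 0, 5 had an unadjusted p under 0.05, and a cosine with permuted samples called 1. Both members had an adjusted p of 0.703 or higher in LL and of 1 in DD. Leaving out the shallow LL sample did not bring either member past the threshold.

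In the gill, both members passed in the diel series, and 15% of 40 transcripts did. Rora-Ch10 was 952, 966 and 1050 at ZT5, 947, 1006 and 1542 at ZT9, 832, 925 and 1026 at ZT13, 255, 722 and 833 at ZT17, 735, 782 and 919 at ZT21, 870, 1017 and 1221 at CT1 and 787, 940 and 947 at CT5. Its group means were lowest at ZT17 and ZT21. The 1542, a count of 725 barcodes, came from fish A11, whose Rora-Ch16 rested on 37. Rora-Ch16 was 98.8, 108 and 126 at ZT5, 78.7, 89.9 and 97.8 at ZT9, 69.7, 96.5 and 97.6 at ZT13, 41.0, 78.0 and 96.8 at ZT17, 85.9, 88.5 and 89.8 at ZT21, 91.2, 94.7 and 101 at CT1 and 94.5, 103 and 113 at CT5. Samples of ZT5 lay above all those of ZT17 in both members. ZT9 and CT1 did so in Rora-Ch10 only, and the other times overlapped ZT17.

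The JTK adjusted p was 0.0107 for Rora-Ch10 and 0.00485 for Rora-Ch16 (21 samples each), with amplitudes of 0.33 ± 0.13 and 0.25 ± 0.08 and peaks at 6.16 h and 4.43 h. Without the ZT17 sample of low geometric mean the adjusted p was 0.0408 and 0.0195, and the amplitudes fell to 0.18 ± 0.07 and 0.15 ± 0.05. After Benjamini-Hochberg adjustment over the 40 transcripts as well, neither passed, at 0.142 and 0.0970, nor did any other gill transcript. Without replicate 3 of each time point, which takes out the low sample and A11, the adjusted p was 0.426 and 0.316. Without replicate 2, it was 0.0544 for Rora-Ch16. In a permutation of the cosine within runs of 12, both lost the call (p = 0.0892 and 0.137). Rora-Ch10 also lost it after geometric-mean scaling (0.0985) and with tied curves and whole intervals in JTK (0.0661), and Rora-Ch16 with LD samples only (0.0606). In constant conditions neither passed: in LL, where 15% of gill transcripts did, the adjusted p was 1 and 0.703, and in DD, where 10% did, it was 1 for both.

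Although the gill called both members and the OT neither, the diel amplitudes themselves were not shown to differ. For OT minus gill the difference was -0.21 for Rora-Ch10 (adjusted p = 0.345) and -0.21 for Rora-Ch16 (adjusted p = 0.139). For OT minus SV it was 0.04 (adjusted p = 0.819) and -0.26 (adjusted p = 0.156), and for SV minus gill -0.25 (adjusted p = 0.432) and 0.04 (adjusted p = 0.791), all by permutation of tissue labels within time points with 100000 resamples. Of the transcripts tested, 10.8% of 37 passed for OT minus SV, 20.5% of 39 for OT minus gill, and 0% of 36 for SV minus gill, with 3 under 0.05 unadjusted and 0 when labels were swapped within fish.

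The 2 members followed each other from fish to fish more closely than from time to time in the OT. Within groups, their log2 signals correlated at r = 0.93 over 63 OT samples, 0.78 in the SV and 0.67 in the gill. Over the 21 group means r was 0.14, 0.49 and 0.71. These are descriptions, and members of one sample share its scaling and RNA amount. The study's test of a pair is an F test of separate against shared sixth-order curves through 39 samples of values divided by the gene's mean. It gave p = 0.124 (n = 39, diel and LL) and 0.229 (diel and DD) for the OT. The p was 0.669 and 0.760 (n = 39) for the SV, and 0.396 and 0.409 for the gill. At the threshold of 0.01, 4.76% of 84 such tests on pairs passed. The F test takes the members as separate fish. With the members swapped at random within each fish (replicate block), the same comparison gave p = 8e-05 and 0.0001 for the OT by permutation. It gave 0.0702 and 0.0272 for the SV and 0.168 and 0.251 for the gill. The OT profiles thus passed once the fish was held fixed, with the steps of the sample numbers described above inside the difference tested. The swap was not compared over the other pairs. How common such a result is among pairs is therefore not known, and it is not shown to be particular to this pair.

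Light left on or withheld was compared at matched times. On the first morning, at CT1 and CT5, OT signal of Rora-Ch16 was lower with light than without. Rora-Ch16 was 2125, 2495 and 2534 with light against 2647, 2687 and 3539 without at CT1, and 1876, 2121 and 2169 against 2661, 2692 and 2951 at CT5. The groups did not overlap at either time, which was not compared over the other transcripts. Its log2 difference was -0.37 (LL minus DD, 6 against 6; exact permutation within time points, unadjusted p = 0.005, the smallest the design allows; adjusted p = 0.0342), where 14.6% of 41 transcripts passed.

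Rora-Ch10 was 3513, 3970 and 4083 with light against 3966, 4030 and 5513 without at CT1, which overlapped, and 2930, 3306 and 3658 against 3918, 4212 and 4594 at CT5, which did not. Its difference was -0.29 and missed the threshold (adjusted p = 0.0641). The median difference over all 41 OT transcripts was -0.25. After scaling by the geometric mean, Rora-Ch10 stood at -0.12 (adjusted p = 0.0410) and Rora-Ch16 at -0.20 (adjusted p = 0.0342). The groups lay in different runs of sample numbers, 73 to 84 with light and 97 to 108 without, and run and light cannot be told apart here. With 1 fish of each time point left out, the exact test cannot go below 0.0556, and the log2 difference of Rora-Ch16 was -0.45 to -0.27. Later OT groups also lay apart the other way, higher in LL. Rora-Ch10 ran from 5492 to 5819 in LL against 4175 to 5184 in DD at CT9. Rora-Ch16 ran from 2680 to 2803 in LL against 2194 to 2447 in DD at CT25. These groups too lay in different runs. Over the 8 matched times, LL and DD groups did not overlap at 2 for OT Rora-Ch10 and at 3 for OT Rora-Ch16. The counts for Rora-Ch10 and Rora-Ch16 were 0 and 1 in the SV and 1 and 2 in the gill. For the log2 ratio of the pair, the counts were 4 (OT), 4 (SV) and 1 (gill). SV ratios lay lower in LL than DD at CT1 (2.06 to 2.23 against 2.39 to 2.91) and CT5 (1.96 to 2.18 against 2.25 to 2.56). SV ratios lay higher in LL at CT17 (2.01 to 2.21 against 1.33 to 1.98) and CT25 (2.20 to 2.39 against 1.90 to 2.06). Here too the groups came from different runs. None of these counts was taken over the other transcripts or pairs, so they serve as description.

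In the SV and gill, neither member passed on that morning, and 0% of 38 and 0% of 40 transcripts did. Here 9 and 11 were under 0.05 unadjusted in the exact test, and limma called 7 and 3. The differences of Rora-Ch10 and Rora-Ch16 were -0.00253 and 0.34 in the SV (adjusted p = 0.985 and 0.222) and 0.05 and 0.15 in the gill (adjusted p = 0.747 and 0.210).

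From CT9 to CT29, no LL minus DD difference of either member passed. In the OT it was 0.04 for Rora-Ch10 (18 against 18, permutation, adjusted p = 0.547) and 0.05 for Rora-Ch16 (adjusted p = 0.345), where 48.8% of transcripts passed. Scaled by the geometric mean, both turned to -0.10 and passed (adjusted p = 0.0363 and 0.0228). That mean is made of clock transcripts that themselves changed, for example Per2-Ch14 by 1.53 and Tef-Ch3 by -0.41. Over all OT transcripts the median difference was 0.06. The scaled values are thus relative to transcripts that differed between LL and DD. In the SV the unscaled difference was 0.23 and -0.06 (adjusted p = 0.123 and 0.736), where 34.2% passed. For the gill it was 0.11 and 0.06 (adjusted p = 0.514 and 0.644), where 20% passed. The ratio of the pair differed by -0.01 for the OT (adjusted p = 0.904), 0.29 for the SV (adjusted p = 0.103) and 0.05 for the gill (adjusted p = 0.662), while 33.3% of 15, 7.69% of 13 and 14.3% of 14 pairs passed. The OT value averages over times that went both ways. Its mean log2 ratio in LL and DD was 1.31 and 0.97 at CT9, 0.67 and 0.99 at CT25, and 0.70 and 1.01 at CT29. From CT13 to CT21 the LL mean was also the higher. At each of these times the LL and DD groups lay in different runs of sample numbers. In the SV, the sample of 6 barcodes left out, the difference of the ratio was 0.25 (adjusted p = 0.195).

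In the SV, the balance of the pair varied with the level of another ROR gene, Rorb-Ch20. RORB is a close relative of RORA known in mammals for its expression in retina and brain. In the deposited signal, Rorb-Ch20 had a median of 1042 in OT samples (586 to 1615), 14.8 in SV samples (4.75 to 76.5) and 2.04 in the gill (1 to 5.64), where it is listed as not expressed. In 3 SV samples it exceeded 3 times the SV median: LD at ZT9 from fish A9, with 67.4 and a log2 ratio of the pair of 1.35, LL at CT13 from A37, with 71.9 and 1.28, and DD at CT13 from B13, with 76.5 and 0.80. In the other 60 SV samples the ratio ran from 1.20 over 2.07 to 2.91. The 3 samples of high Rorb-Ch20 had a Rora-Ch16 of 146 to 173, against a median of 84.4 in the others, and their Rora-Ch10 had a median of 373, against 359. The highest Rora-Ch16 of the SV, 301, was in another fish of DD at CT13, B16, with a Rorb-Ch20 of 30.1 and a ratio of 1.20.

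Over the 63 SV samples, the log2 ratio of the pair fell as Rorb-Ch20 rose relative to the geometric mean of expressed transcripts, with r = -0.51 (permutation p = 3e-05, adjusted 9e-05 over 3 relations) and rho = -0.28 (permutation p = 0.0281, adjusted 0.0513). Without the 2 samples farthest from the median, r was -0.35. The relation without all 3 samples of high Rorb-Ch20 was not tested. Within the 5 runs of 12 samples, r lay between -0.66 and -0.23, and over deviations from group means it was -0.42. Relative to the same geometric mean, Rora-Ch16 rose with Rorb-Ch20 (r = 0.39, permutation p = 0.00172, adjusted 0.00258; rho = 0.27, adjusted p = 0.0513; r = 0.25 without the 2 farthest; -0.11 to 0.62 within runs), and Rora-Ch10 had r = -0.21 (permutation p = 0.0972) and rho = -0.05 (permutation p = 0.716). The rank correlations missed the threshold after adjustment. With an SV median of 14.8, Rorb-Ch20 lay close to the highest signal of unexpressed transcripts elsewhere, 12.6 (OT) and 11.8 (gill). The SV had no such transcripts to set a floor. For fish A47, with a ratio of 2.60, the Rorb-Ch20 signal of 8.14 equalled the step that the values of that sample are made of. That sample was kept in these relations, and leaving it out of them was not tested. In the relations of the single members, both sides share the geometric mean as divisor, which by itself pushes r upward. Without the 3 samples, the SV ratio still differed from the OT by -1.17 and from the gill by -1.13 (OT minus SV and SV minus gill). The relation was sought after the values had been seen, and its cause was not tested. Its p-values are adjusted over these 3 relations only, not over the other transcripts that could have been picked. They therefore overstate the evidence and serve as description.

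**Figure D4:**
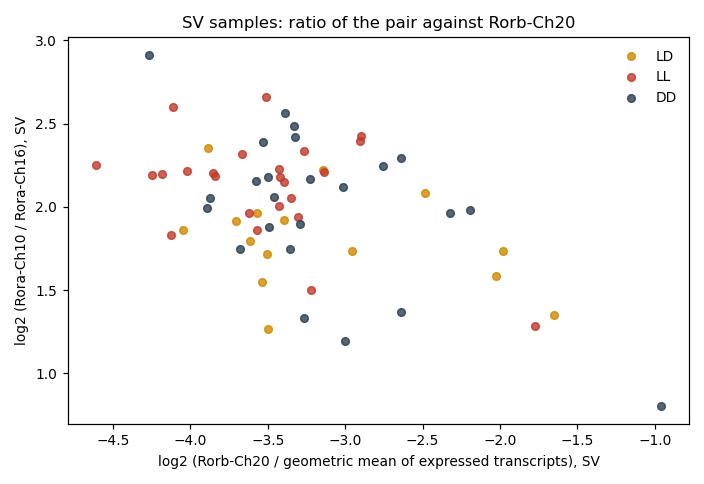
Log2 ratio of Rora-Ch10 to Rora-Ch16 against log2 of Rorb-Ch20 over the geometric mean of expressed transcripts in the 63 SV samples, coloured by light. The 3 samples with a Rorb-Ch20 signal of 67.4 to 76.5 have ratios of 1.35, 1.28 and 0.80.

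The other genes of the loop were followed as a list of 17, of which 15 were expressed in OT samples and 13 each in SV and gill samples. In the OT diel series 6 of the 15 passed for a rhythm, with a median amplitude of 0.21 beside 0.24 over all transcripts. The 6 were the repressors Nr1d1-Ch6, Nr1d2-Ch14 and Nr1d2-Ch27 and the targets Arntl1-Ch10, Arntl1-Ch11 and Arntl1-Ch26, for example Nr1d1-Ch6 with an amplitude of 0.58 ± 0.07 peaking at 15.6 h and Arntl1-Ch10 with 0.43 ± 0.06 peaking at 8.46 h. In OT under LL 3 of 15 passed and under DD 8 of 15, where 31.7% and 39% of all transcripts did (48.8% in the diel series). The 8 included Rorb-Ch24, with an amplitude of 0.15 ± 0.04.

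In the SV 1 of 13 passed in the diel series, Nr1d1-Ch6, which also was the 1 of 13 in DD, where 23.7% and 7.89% of all transcripts passed. In the gill diel series, where both members of the pair passed, 3 of 13 list genes did (15% of all transcripts). Among them were Arntl1-Ch10, with an amplitude of 0.30 ± 0.08 peaking at 7.84 h, and Clock-Ch10, with 0.33 ± 0.09 at 12.2 h. Clock-Ch10 encodes the partner of BMAL1. The other Rora gene of the list, Rora-Ch26-1, did not pass in that series, with an amplitude of 0.11 ± 0.06. The median amplitude of the list there was 0.13, beside 0.17 over all 40 transcripts. On the first morning 3 of the 15 list genes passed in the OT, each lower with light, where 14.6% of all transcripts passed. They were Rorb-Ch20 (-0.47), Rorb-Ch24 (-0.42) and Clock-Ch10 (-0.31), each with an adjusted p of 0.0342 in the exact test. Rora-Ch26-1 had a larger difference, -0.64, and missed the threshold (exact test, adjusted p = 0.05125). The median difference was -0.27 over the list and -0.25 over all transcripts, between groups that lay in different runs of sample numbers.

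The third Rora gene of the CodeSet, Rora-Ch26-1, stood below the sum of the pair in each tissue, at a log2 ratio to it of -1.66 ± 0.18 for the OT, -1.54 ± 0.36 for the SV and -0.83 ± 0.41 for the gill (SD, n = 63 each). From CT9 to CT29 it was lower in LL than in DD in the gill, by a log2 difference of -0.26 (permutation, adjusted p = 0.0483). Neither member of the pair passed there, and 20% of 40 transcripts did. The gill groups of LL and DD lay in different runs of sample numbers. Of the list, Nr1d2-Ch27 also passed there, higher in LL by 0.23 (permutation, adjusted p = 0.0415). In the OT, 6 of the 15 list genes passed as higher in LL and 1 passed as lower, where 48.8% of all transcripts passed. In the SV, 3 of 13 passed as higher and 0 as lower, where 34.2% of all transcripts passed.

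The transcripts whose group means ran most like those of each member were compared within each tissue. Clock-Ch23 was the one transcript named for the same member in more than one tissue, and only in the deposited signal. Over the 21 groups, Rora-Ch10 was most like Clock-Ch10 (r = 0.77) and Clock-Ch23 (0.64) among OT groups, Hlf-Ch1 (0.89) and Clock-Ch23 (0.83) among SV groups, and CKId-Ch28 (0.84) and Cry1-Ch10 (0.65) in the gill. Rora-Ch16 was most like Rorb-Ch24 (0.88) and CKIe-Ch3 (0.78) among OT groups, Dbp-Ch14 (0.78) and Clock-Ch10 (0.78) among SV groups, and Tef-Ch1 (0.82) and Nr1d2-Ch27 (0.80) in the gill. Divided by the geometric mean, the second for Rora-Ch10 was Arntl1-Ch16 (0.57) among OT groups, and those for Rora-Ch16 were Hlf-Ch28 (0.64) and Rorb-Ch20 (0.59) among SV groups and CKId-Ch28 (0.57) and Tef-Ch1 (0.57) in the gill, while the others named kept their place. The groups of a tissue share runs and RNA amounts, and these values are descriptions.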

How the data were processed

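The deposited values were NanoString barcode counts that the authors scaled to spike-in positive controls in nSolver, here called signal; the CodeSet had been designed on the Cigene salmon genome, and neither background subtraction nor reference-gene scaling is given in the sources used here. Replicates are fish, named as in the sample titles. The pair and the gene list were chosen with earlier results of these data known. Tests used log2(signal + 1), or signal for JTK, and transcripts that the study lists as expressed. JTK was rewritten after the R package, which rounds pi to 4 decimals; it and the permutation tests were tested on simulated data. Named genes were the pair, the loop list where a member passed a test or a result turned on it, and the 2 most similar transcripts. Two-sided permutations of amplitudes, ratios and levels from CT9 to CT29 used 100000 resamples within time points, and for ratios between tissues within light as well. The first-morning levels were tested over all 400 relabellings within time points. Cosines were permuted over the samples of a series or within runs of 12. The replicate block swapped tissues or members within fish. Fish pair the tissues; over deviations from group means, the median r between tissues was 0.09 to 0.12 over transcripts. Alternatives were other curves, scaling, pseudocounts, adjustments, limma, left-out fish and a replicate block. Python 3.11.15, numpy 2.4.6, scipy 1.17.1, pandas 2.3.3, R 4.3.3 and limma 3.58.1 were used. Barcode totals are whole multiples of a per-sample step (tolerance 0.0051) and cover counting error only. Protein and promoter sequences were not used here. Values of 1 gene of the list are not reported here.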

Additional observations from a re-analysis of the deposited data

How the results depend on the processing

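Of 409 recomputed values for the pair, 377 kept their direction and side of the threshold, 16 lost a call, 4 gained one and 12 turned direction, 2 of which also gained a call. The 377 include results not called in the main setting that stayed so. The call of OT Rora-Ch16 in LL was kept in 5 of 8 settings, and the gill diel calls in 5 of 10 for each member. The first-morning call of OT Rora-Ch16 was kept in 5 of 8. That exact test cannot pass with 1 fish of each time point left out. The ratio between tissues kept its call and direction under each setting run, at -1.17 to -1.02 (OT minus SV), -2.34 to -2.18 (OT minus gill) and -1.20 to -1.13 (SV minus gill), and the replicate block by fish gave -1.14, -2.30 and -1.17. Background was subtracted only for OT and gill. The JTK adjusted p, from the exact null of its statistic, lost the gill diel call of Rora-Ch10 with tied curves and whole intervals together (0.0661) and geometric-mean scaling (0.0985), that of Rora-Ch16 with LD samples only (0.0606), and both with Benjamini-Hochberg (0.142 and 0.0970). With permutation within runs of 12, chosen after seeing the data, both were lost (0.0892 and 0.137), as was Rora-Ch16 in OT under LL (0.406). Geometric-mean scaling added the OT diel rhythm of Rora-Ch16 (0.00206) and the OT level of Rora-Ch10 on the first morning (-0.12), turned the level difference from CT9 to CT29 to -0.10 for both OT members, now called (0.0363 and 0.0228), and to -0.0821 for SV Rora-Ch10, and turned the SV minus gill amplitude of Rora-Ch16 to -0.0469. The OT profiles passed only with the replicate block (8.0e-05 and 1.0e-04), which changed no other call. For profiles, the block was not compared over the other pairs.

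With 1 fish of each time point left out, the JTK adjusted p ran from 0.0286 to 0.312 for OT Rora-Ch16 in LL, and from 0.0359 to 0.426 and 0.0145 to 0.316 for gill Rora-Ch10 and Rora-Ch16. Amplitude differences that turned ran from -0.0657 to 0.135 (Rora-Ch10, OT minus SV) and -0.0831 to 0.147 (Rora-Ch16, SV minus gill). The first-morning difference ran from -0.454 to -0.266 for OT Rora-Ch16, -0.0612 to 0.0362 for SV Rora-Ch10 and -0.0845 to 0.130 for gill Rora-Ch10. From CT9 to CT29 it ran from -0.167 to 0.0772 for SV Rora-Ch16, -0.0238 to 0.108 for gill Rora-Ch16, and -0.0193 to 0.156 for the gill ratio. None of those that turned was called.

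Counts over all transcripts moved by over 1.5 times as follows. Benjamini-Hochberg took rhythms from 16 to 9 (OT, DD), 9 to 4 (SV, diel), 3 to 0 (SV, DD) and 6, 6 and 4 to 0 (gill, diel, LL, DD). Tied curves and whole intervals together took OT DD from 16 to 9, SV DD from 3 to 1, and gill LL and DD from 6 and 4 to 2 and 1. The geometric mean took SV rhythms from 9, 0 and 3 to 21, 4 and 7 (diel, LL, DD), gill DD from 4 to 1, amplitudes from 4 to 7 (OT minus SV) and 0 to 1 (SV minus gill), OT first-morning levels from 6 to 10 and later SV levels from 13 to 2. The cosine took SV rhythms to 15, 1 and 5, LD alone took gill diel from 6 to 3, limma took first-morning levels from 6, 0 and 0 to 13, 7 and 3, and all transcripts with values took later gill levels from 8 to 5. Also chosen after seeing the data, leaving out the 3 low gill samples took gill LL and DD to 3 and 2, leaving out 3 SV samples of high Rorb-Ch20 took SV DD to 1, and leaving out the shallow SV sample took later SV levels from 13 to 20. Without replicate 1, 2 or 3 of each time point, 8, 10 and 11 counts moved: rhythms to 7 to 16 (OT, DD), 3 to 6, 0 to 1 and 0 to 7 (SV, diel, LL, DD) and 1 to 3, 2 to 3 and 1 to 3 (gill, diel, LL, DD), amplitudes to 2 to 4 (OT minus SV) and 1 to 4 (OT minus gill), OT first-morning levels to 0, where the exact test cannot pass, later levels to 12 to 21 (OT), 7 to 13 (SV) and 2 to 7 (gill), and OT ratios between LL and DD to 3 to 5.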
